A study of Mus musculus with 2 samples.

Results

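The metallothionein genes Mt1, Mt2 and Mt3 were described in mouse hippocampus from long reads, each of which can cover a transcript's cDNA from end to end. They were taken by gene name from the tables of both libraries, and all 3 had reads in each, out of 18497 annotated genes listed in at least 1 library. Their reads fell on 10 of 135738 transcript models in replicate 1 and on 12 of 130247 in replicate 2. Metallothioneins are small proteins in which cysteine makes up a large part of the chain, and the cysteines hold zinc and copper ions in clusters. Mt1 and Mt2 are made in many tissues and are known to be switched on by zinc, through the metal-sensing factor MTF1, and by glucocorticoids. Mt3 was first known as a growth inhibitory factor of brain and is the form most restricted to the nervous system. In brain, Mt1 and Mt2 are known mainly from astrocytes, and Mt3 from both astrocytes and neurons that hold zinc in their vesicles.

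The tissue was labelled as a layer of hippocampus and came from female B6CASTF1/J mice, a first-generation hybrid of C57BL/6J and CAST/EiJ, at 2 months of age. There was 1 group with no treatment, and it held 2 libraries numbered as biological replicates 1 and 2, each made from 2 µg of RNA. The labels give the libraries different tissue codes but the same donor entry and do not state plainly that 2 animals were used, so a p-value here weighs how far the libraries lie apart against the error of counting reads, and the gap may be technical. With 1 group, levels and isoforms could be described and the libraries compared with each other, but no condition could be compared with another.

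Replicate 1 held 836240 reads and replicate 2 held 752291, of which 826596 and 745492 were not on spike-in RNAs. The unit used below is CPM, a gene's reads scaled to 1000000 non-spike-in reads. A single read equalled 1.21 CPM in replicate 1 and 1.34 CPM in replicate 2. All 4 hippocampal markers examined had reads in both libraries. The calcium sensor gene Hpca averaged 2191 ± 38.9 CPM, the neuronal gene Nrgn 1754 ± 3.35 CPM and the CA1 marker Wfs1 254 ± 16.7 CPM (each ± is an SD over the libraries, n = 2). The dentate granule cell marker Prox1 was low, at 19.4 ± 8.61 CPM with 11 and 19 reads. All 10 astrocyte and all 7 neuronal markers examined had reads in both libraries. The choroid plexus gene Ttr, which encodes a carrier protein that this tissue makes in bulk, was the one marker that stood apart between the libraries, with 271 reads in replicate 1 and 131 in replicate 2. Its difference was under 2-fold but had an adjusted p of 1.29e-06 in the exact binomial test described below. The other choroid plexus genes examined had too few reads for this test, so whether they followed Ttr could not be told. In replicate 1 and replicate 2, Kl had 8 and 6 reads, Folr1 1 and 1 and Clic6 1 and 3, while Aqp1 and Otx2 had none. In bulk tissue, fewer cells of a type and less RNA per cell cannot be told apart.

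The 3 genes lie side by side on the forward strand of chromosome 8 (mm10, GENCODE M21). Mt3 (ENSMUSG00000031760.9) spans chr8:94152607-94154146, Mt2 (ENSMUSG00000031762.7) chr8:94172664-94173568 and Mt1 (ENSMUSG00000031765.8) chr8:94179082-94180327. Between them lie 18517 bases from Mt3 to Mt2 and 5513 bases from Mt2 to Mt1. Each main transcript, Mt1-201, Mt2-201 and Mt3-201, has 3 exons, and in each the start codon lies in exon 1 and the stop codon in exon 3. The coding sequences of these transcripts, read from the GENCODE M21 transcripts, are shown because the density of cysteine codons is what defines the family. The capitals mark every cysteine codon in frame.
Mt1: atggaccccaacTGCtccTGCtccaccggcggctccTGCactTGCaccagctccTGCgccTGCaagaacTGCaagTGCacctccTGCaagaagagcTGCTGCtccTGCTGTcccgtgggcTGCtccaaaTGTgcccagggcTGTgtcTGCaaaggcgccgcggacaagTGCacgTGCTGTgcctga
Mt2: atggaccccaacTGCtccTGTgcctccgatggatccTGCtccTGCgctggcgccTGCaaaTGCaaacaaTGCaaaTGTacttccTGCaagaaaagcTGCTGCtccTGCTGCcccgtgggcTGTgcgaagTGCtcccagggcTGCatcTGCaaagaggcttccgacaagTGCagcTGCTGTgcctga
Mt3: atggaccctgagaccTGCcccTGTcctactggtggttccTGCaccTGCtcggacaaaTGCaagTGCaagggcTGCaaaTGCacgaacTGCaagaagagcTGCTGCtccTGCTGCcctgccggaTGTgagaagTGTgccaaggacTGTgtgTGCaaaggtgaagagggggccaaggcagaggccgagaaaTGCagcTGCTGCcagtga

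Each of the 3 reading frames holds 20 cysteine codons, which is 32.8% of the 61 codons of Mt1 and Mt2 and 29.4% of the 68 codons of Mt3. The codons are spread over the exons in the same way in all 3 genes, with 2 in exon 1, 7 in exon 2 and 11 in exon 3. Exon 2 is 66 bases long in every member and is coding throughout. The additional length of Mt3 lies in the other exons, with 31 coding bases in exon 1 and 110 in exon 3 with the stop, against 28 and 92 in Mt1 and Mt2. Mt1 and Mt2 were identical at 79.6% of 186 aligned positions with no gap, whereas Mt1 and Mt3 were identical at 66.2% and Mt3 and Mt2 at 67.6% of 207 aligned positions. The longest stretch shared letter for letter was 27 bases, between Mt1 and Mt3, and 20 bases for each of the other pairs. The sources used here do not say how reads fitting more than 1 member were placed by the authors.

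Mt1 and Mt3 were the abundant members, and Mt2 was lower. Mt1 had 230 reads in replicate 1 and 186 in replicate 2, or 278 CPM (exact 95% Clopper-Pearson interval 243 to 317) and 249.5 CPM (215 to 288). Mt3 lay close to it, with 210 and 183 reads, or 254 CPM (221 to 291) in replicate 1 and 245 CPM (211 to 284) in replicate 2. Mt2, the nearest relative of Mt1 in sequence and position, was the lowest, with 61 and 67 reads, or 73.8 CPM (56.4 to 94.8) in replicate 1 and 89.9 CPM (69.7 to 114) in replicate 2. The levels of Mt1 and Mt3 overlapped between libraries, while both libraries of Mt2 lay well below all values of the other members. The intervals cover counting error only, since the reads carry no molecular identifiers and several may come from one molecule.

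**Figure D1:**
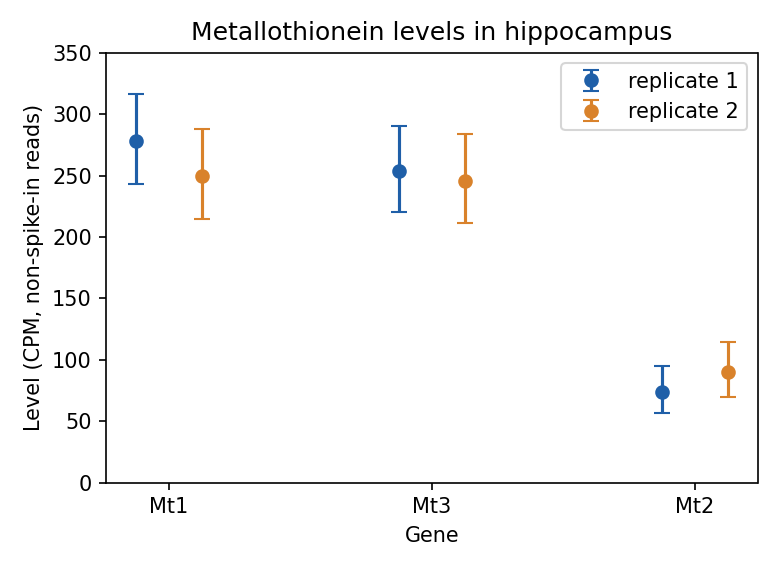
Levels of the metallothionein genes in CPM (vertical axis, from 0), for each library, with exact 95% Clopper-Pearson intervals as bars. Mt1 and Mt3 lie between 245 and 278 CPM and overlap, and both Mt2 points lie under 100 CPM.

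Within a library the ratio of 2 members does not depend on the total. Mt1 had 3.77 times the reads of Mt2 in replicate 1 (exact 95% interval 2.83 to 5.09) and 2.78 times in replicate 2 (2.09 to 3.73). Mt3 had 3.44 times the reads of Mt2 in replicate 1 (2.58 to 4.66) and 2.73 times in replicate 2 (2.05 to 3.67). These intervals lie above 1 in both libraries. Mt1 and Mt3, by contrast, could not be ordered, with a ratio of 1.10 (0.904 to 1.33) in replicate 1 and 1.02 (0.824 to 1.25) in replicate 2. The order by level was therefore Mt1 and Mt3 together, then Mt2.

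Mean levels came to 264 ± 20.3 CPM for Mt1, 249.8 ± 6.07 CPM for Mt3 and 81.8 ± 11.4 CPM for Mt2. These levels placed Mt1 at rank 517, Mt3 at rank 556 and Mt2 at rank 2424 by mean CPM among the genes listed, while the median of the 14787 genes with reads in both libraries was 19.8 CPM. A long read stands for one cDNA, so CPM was not divided by length. The main transcripts are of similar length, 549 bases for Mt1, 536 for Mt3 and 511 for Mt2. Per kilobase of main transcript the levels were 481 ± 37.0, 466 ± 11.3 and 160 ± 22.2 CPM in the same order of genes. Mt2 was thus the lowest on this scale too. Whether length affected how well these cDNAs were recovered was not tested. Summed, the members held 501 reads (606 CPM) in replicate 1 and 436 reads (585 CPM) in replicate 2. Models of up to 600 bases, the range these transcripts fall in, held 12.4% of non-spike-in reads in replicate 1 and 11.2% in replicate 2, and the read-weighted median model length was 2340 and 2381 bases. With the counts and totals limited to full-splice models, the mean of Mt1 came to 403 ± 28.1 CPM, and the order of the members was the same.

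The genes nearest to each member in mean level, chosen as the nearest pair above and the nearest pair below, show the part of the range each member occupied. Around Mt1 these were Sncb, which encodes the synaptic protein beta-synuclein, at 265 CPM and Tspan5 at 264.6 CPM, then Atp2b2, a calcium pump of the plasma membrane, at 263.7 CPM and Nr2f6 at 263 CPM. Mt3 stood below Arf5 and Tmem130 and above Arpc1a and Mapk8ip1, all between 248.6 and 251 CPM. Mt2 stood below Srp68 and Spock1 and above the haemoglobin gene Hbb-bs and Ccdc85a, all between 81.77 and 81.91 CPM. Likeness here is of the mean of 2 libraries only.

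Between the libraries no member was called as different, though few genes were. In a two-sided exact binomial test of each gene against the ratio of library totals, with Benjamini-Hochberg adjustment over 9062 genes, 0 of the 3 members differed at an adjusted p under 0.05 and at least 2-fold, against 28 of all genes tested (0.309%). In replicate 1 over replicate 2, Mt1 stood at a ratio of 1.12 (exact 95% interval 0.915 to 1.36, adjusted p = 0.932), Mt2 at 0.821 (0.571 to 1.18, adjusted p = 0.939) and Mt3 at 1.03 (0.845 to 1.27, adjusted p = 1). Unadjusted p-values were 0.280, 0.288 and 0.762 in the same exact test, and 672 of all genes tested had one under 0.05. The interval is widest for Mt2, which had the fewest reads. With so low a share of genes called, the count of 0 says little about the members. As log2 ratios the differences were 0.157 for Mt1, -0.283 for Mt2 and 0.0491 for Mt3. Over all genes tested the median size of this ratio, sign set aside, was 0.238, so Mt2 lay slightly beyond it.

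Reads of a gene are sorted by the deposited models into classes. Known models are annotated transcripts. Models of the class NIC join annotated splice sites in a combination the annotation lacks, and those of the class NNC use a splice site it lacks. ISM models match only a part of an annotated chain of introns, and genomic models are unannotated and, for these genes, of a single exon that runs through intron sequence. Known, NIC and NNC reads were pooled as full-splice reads.

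The members differed from one another in class far more than the libraries did. Of the Mt1 reads, 230 of 230 in replicate 1 and 186 of 186 in replicate 2 were on known models (100%). No Mt1 read was on a genomic model, and a count of 0, with a limit of 3 reads, allows a share of up to 1.30% in replicate 1 and 1.61% in replicate 2. Mt3 had full-splice shares of 93.8% and 92.3% in the libraries. Its genomic models held 12 of 210 reads (5.71%, 2.99 to 9.77) in replicate 1 and 13 of 183 (7.10%, 3.84 to 11.8) in replicate 2. Mt2 had lower full-splice shares, of 73.8% and 73.1%, and its genomic models held 16 of 61 reads (26.2%, 15.8 to 39.1) in replicate 1 and 18 of 67 (26.9%, 16.8 to 39.1) in replicate 2. In each library the interval of Mt2 lay above that of Mt3. Over the reads of all annotated genes, genomic models held 10.5% in replicate 1 and 10.3% in replicate 2, and full-splice models 77.4% and 76.9%.

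The name of a class depends on what is annotated, and this touches Mt1. Mt1 alone among the members has an annotated transcript of a single exon, Mt1-202, which runs without a splice from chr8:94179241-94180325, so a read of that shape is a known read for Mt1 but a genomic one for Mt2 and Mt3. Of 5871 genes with a spliced annotated transcript and at least 20 reads in each library, 798 (13.6%) have such a single-exon transcript as well. When reads of any single-exon model were counted, whatever their class, Mt1 had 4 of 230 (1.74%, 0.476 to 4.39) in replicate 1 and 2 of 186 (1.08%, 0.130 to 3.83) in replicate 2. This count, chosen after seeing the classes, leaves Mt2 and Mt3 as they were, since all their single-exon reads were genomic.

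By this measure Mt2 averaged 26.5 ± 0.450%, Mt3 6.41 ± 0.983% and Mt1 1.41 ± 0.469%. Over the 5871 spliced genes the median was 6.33%, with the middle of the distribution from 2.45% to 16.1% (quartiles). The mean of Mt2 lay above that of 84.5% of these genes, that of Mt3 above 50.4% and that of Mt1 above 14.2%. Among 163 of these genes with a span of up to 2000 bases, which all members share, the median was 4.49%, and Mt2 lay above 87.7%, Mt3 above 60.7% and Mt1 above 24.5%. 

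**Figure D2:**
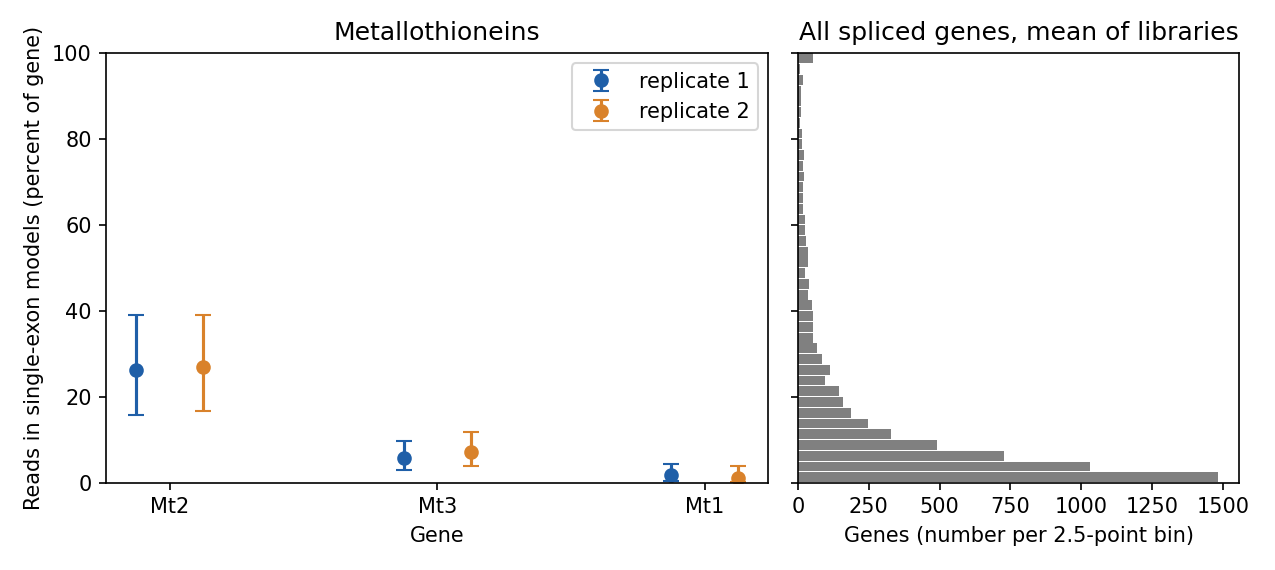
Reads in single-exon models as a percent of all reads of the gene (vertical axis), left for each member and library with exact 95% Clopper-Pearson intervals, right as the number of spliced genes per bin of the mean of both libraries. Mt2 lies at 26.2% and 26.9%, Mt3 at 5.71% and 7.10% and Mt1 at 1.74% and 1.08%, while the median of 5871 genes is 6.33%.

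The shares were alike in both libraries within the precision of these counts. Two-sided Fisher's exact tests of full-splice against other reads, adjusted over 6038 genes with at least 20 reads in each library, called 0 of the 3 members and 16 genes in all (0.265%). At an unadjusted p under 0.05 there were 279 genes. The difference of full-splice share, replicate 1 minus replicate 2, was 0 percentage points for Mt1, 0.636 for Mt2 and 1.46 for Mt3, each with an adjusted p of 1 in the Fisher's exact test. The genomic reads of Mt2 were given to a model of 705 bases in replicate 1 and to one of 901 bases in replicate 2, and those of Mt3 to models of 731 and 1401 bases. Model structures were built for each library on its own, and counts are per model, so the extent of single reads was not analysed here.

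Among full-splice reads, a single isoform of each member held nearly all. Mt1-201 had 226 of 230 reads in replicate 1 and 183 of 186 in replicate 2, a mean share of 98.3 ± 0.0893%. Mt2-201 had 44 of 45 and 48 of 49, a mean of 97.9 ± 0.128%. Mt3-201 had 190 of 197 and 164 of 169, a mean of 96.7 ± 0.421%. Across 4819 genes that had 20 or more full-splice reads per library, the leading isoform had a median share of 84.2% (quartiles 62.4% and 94.5%). Each member lay above the upper quartile, but this set was not limited to short genes with few exons. Two-sided Fisher's exact tests of this share between libraries called 0 of the 3 members, each with an adjusted p of 1, and 9 of these genes in all (0.187%), with 172 at an unadjusted p under 0.05.

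**Figure D3:**
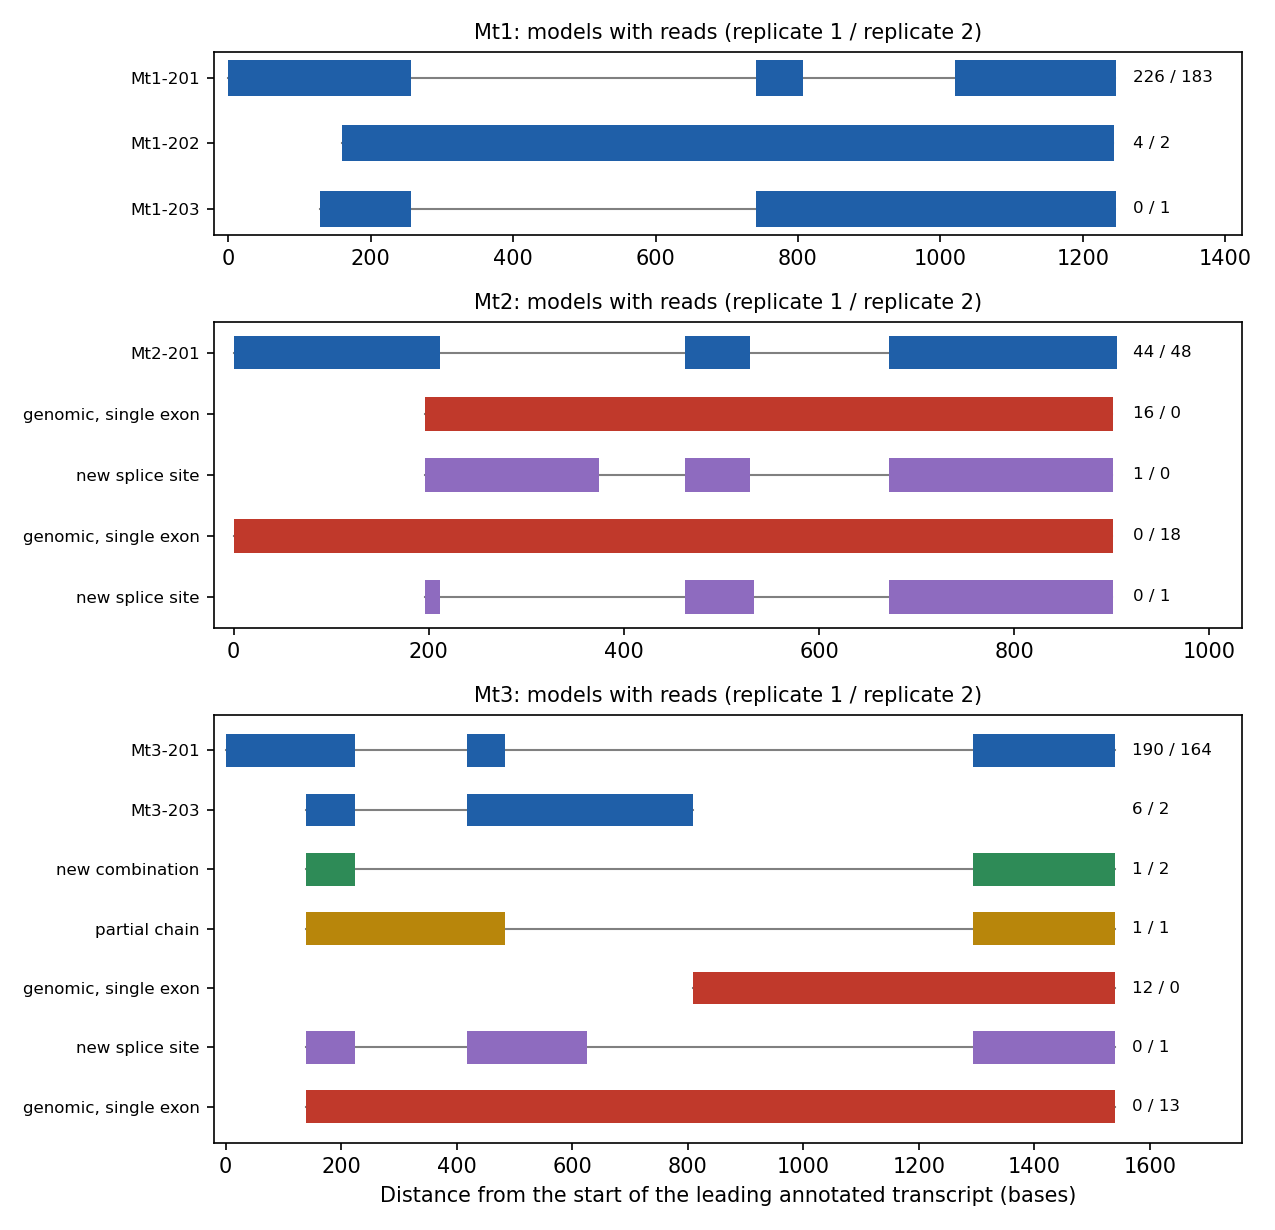
Transcript models with reads for Mt1, Mt2 and Mt3, drawn to scale by distance from the start of the leading annotated transcript in bases (blocks are exons, lines are introns), with reads in replicate 1 and replicate 2 at the right. Blue models are annotated, red ones are genomic models of a single exon, and green, purple and ochre mark NIC, NNC and ISM models. The 3-exon model at the top of each panel holds most reads (226 and 183 for Mt1, 44 and 48 for Mt2, 190 and 164 for Mt3).

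As a share of all reads of the gene, genomic ones included, the main transcript held 98.3% and 98.4% for Mt1, 90.5% and 89.6% for Mt3, but 72.1% and 71.6% for Mt2. The reads outside it numbered 4 and 3 for Mt1, 20 and 19 for Mt3, and 17 and 19 for Mt2. Of the 8 annotated transcripts of the 3 genes, 6 had reads. Mt2-202 and Mt3-202 had none. All 6 had the same exons in the deposited models as in GENCODE M21.

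The rare spliced models are given as counts, since each rests on a few reads. Mt3-203, an annotated form whose exon 2 runs on into intron 2 and ends at 94153416 with no exon 3, had 6 reads in replicate 1 and 2 in replicate 2. Mt1-203, an annotated form that keeps intron 2 of Mt1, had 0 reads in replicate 1 and 1 read in replicate 2. An unannotated Mt3 model of the class NIC joined exon 1 directly to exon 3 and skipped exon 2 (chr8:94153025-94153090), with 1 read in replicate 1 and 2 in replicate 2. Exon 2 is 22 codons long, so the frame was kept in the skipped form, which would have 46 codons before the stop and 13 cysteine codons, against 68 and 20 in Mt3-201. A further Mt3 model, of the class ISM, kept intron 1 and had 1 read in each library. These were the only unannotated spliced models of the members found in both libraries.

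Splice sites that the annotation lacks were seen in single reads. For Mt3, 1 read in replicate 2 had exon 2 extended into intron 2. For Mt2, 1 read in replicate 1 had exon 1 extended to 94173038, and 1 read in replicate 2 had exon 2 extended to 94173196, so the NNC share of Mt2 came to 1.64% in replicate 1 and 1.49% in replicate 2 from different chains of introns. A count of a single read has no replicate check. In all, spliced unannotated models held 3 reads of the members in replicate 1 and 5 in replicate 2.

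The start of the annotated transcripts was set beside the sequence, because MTF1 acts through metal response elements near the start. The core of this element was searched as TGCACNC or TGCGCNC on both strands. In the 250 bases before the RefSeq start (GRCm38.p6) there were 3 matches for Mt2, 1 for Mt1 and 0 for Mt3, and 21.4% of 32851 promoters in the RefSeq table hold at least 1 and 1.26% at least 3. The RefSeq start of Mt2, 94172618, lies before the GENCODE start of Mt2-201, 94172664, and the bases between were not searched. For Mt1 these starts are 94179089 and 94179082, and for Mt3 they are the same. After the GENCODE start, inside the annotated exon 1, more matches lay within the first 150 bases. There were 4 in Mt1-201, 3 in Mt2-201 and 3 in Mt3-201. All 10 lay before a TATAAA, the letters of a TATA box, found on the transcript's strand in the same exon of each gene. It begins 129 bases into Mt1-201, 90 bases into Mt2-201 and 107 bases into Mt3-201. The 30 bases around it are shown on the forward strand with TATAAA in capitals, because a TATA box is usually found upstream of the start of transcription.
Mt1, chr8:94179198-94179227: tcgtccaacgacTATAAAgagggcaggctg
Mt2, chr8:94172741-94172770: aatactctccgcTATAAAggtcgcgctccg
Mt3, chr8:94152701-94152730: cccgcctggggcTATAAAagccttgccacc

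Of 58695 protein-coding transcripts of GENCODE M21 with at least 150 bases, 1.82% hold TATAAA in their first 150 bases and 0.388% hold at least 3 matches to the core. Only 5 of them hold both, namely Mt1-201, Mt2-201, Mt3-201, Dhcr7-203 and Smarcd2-205. The window and the pair of motifs were chosen after the sequences had been seen, and a match is not shown to be a site. Shorter annotated transcripts start 31 bases after the first T of TATAAA for Mt1 (Mt1-202), 33 bases after it for Mt3 (Mt3-202 and Mt3-203) and 107 bases after it for Mt2 (Mt2-202), while Mt1-203 starts 1 base after it. Where the reads began could not be compared with these positions. All 9 unannotated models of the members had both ends exactly at annotated boundaries, and reads on a known model are counted under its annotated ends.

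On the opposite strand of the members nothing was detected. Gm45774, an annotated antisense gene, overlaps Mt2 by 749 bases and had 0 reads in both libraries, which allows up to 3.63 CPM in replicate 1 and 4.02 CPM in replicate 2. No antisense model over any of the 3 members had a read. The same held for 31.0% of 6038 genes with at least 20 reads in each library and for 83.6% of 262 such genes with a span of up to 2000 bases, so short genes mostly lacked antisense reads. Mt4, the metallothionein known from stratified epithelia, lies 13575 bases before Mt3 in the same cluster and had 0 reads in both libraries.

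Genes that move or use the metals bound by metallothioneins, and a list of metal and stress regulators, were set beside them. Of 45 genes in 5 lists, which also hold Mt4, none had a higher mean level than Mt1, and 8 had a higher mean than Mt2. Of these, 6 were above Mt2 in both libraries, while Slc39a10 and Atox1 were above it in replicate 1 and below it in replicate 2. In the exact binomial test between libraries, 0 of the 29 that could be tested were called, against 0.309% of all genes. Of 10 genes of the Slc30 family of zinc transporters, 8 had reads in both libraries, with a list median of 15.4 ± 3.82 CPM. Slc30a9 was the highest at 221 ± 1.85 CPM, near Mt3. Slc30a3, the transporter that loads zinc into synaptic vesicles, averaged 128 ± 27.3 CPM, with 90 reads in replicate 1 and 110 in replicate 2. Slc30a5 and Slc30a4 followed at 33.1 ± 0.616 and 21.8 ± 5.19 CPM, and Slc30a2 and Slc30a8, the zinc transporter of insulin granules, had no reads.

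Among 14 genes of the Slc39 family, which bring zinc into the cytosol, 10 had reads in both libraries and the list median was 35.7 ± 0.802 CPM. Slc39a3 led at 133 ± 5.61 CPM, followed by Slc39a12 at 111 ± 6.29 CPM, Slc39a7 at 102 ± 17.3 CPM and Slc39a10 at 85.9 ± 17.1 CPM. Slc39a10 had 98.0 CPM in replicate 1 and 73.8 CPM in replicate 2, so its order against Mt2 differed between the libraries. Slc39a4, the intestinal zinc importer, had no reads. All 12 copper genes had reads in both libraries, with a list median of 16.98 ± 3.49 CPM. The copper chaperone genes Cox17, of mitochondria, and Atox1 averaged 117 ± 21.2 and 90.5 ± 29.4 CPM. Cox17 was above Mt2 in both libraries, and Atox1 had 111.3 CPM in replicate 1 and 69.8 CPM in replicate 2. Commd1 and Sod1, the copper and zinc superoxide dismutase, had 46.33 ± 2.92 and 46.26 ± 4.72 CPM.

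**Figure D4:**
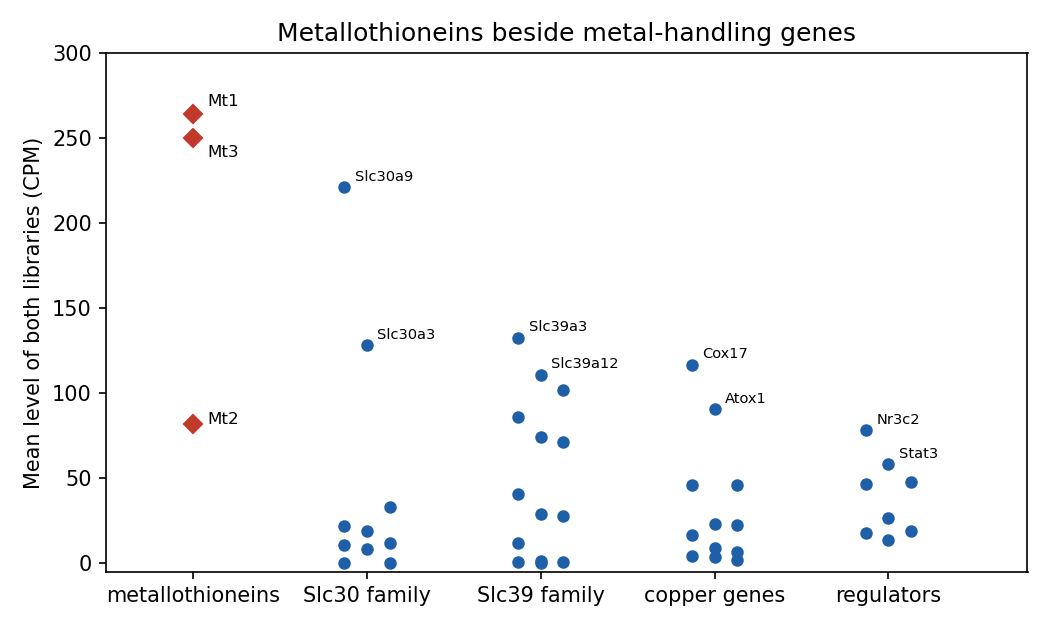
Mean level over both libraries in CPM (vertical axis) of the metallothioneins (diamonds) and of each gene in the lists shown (circles). The lists are Slc30 zinc transporters, Slc39 zinc importers, copper genes and regulators, with the leading pair of each named. Mt1 (264 CPM) and Mt3 (249.8 CPM) lie above all circles, and 8 circles lie above the mean of Mt2 (81.8 CPM).

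All 8 genes in the list of metal and stress regulators had reads in both libraries, and none reached the level of Mt2. Their median was 34.6 ± 6.12 CPM. Mtf1, which encodes the metal-sensing factor, had 13 reads in replicate 1 and 17 in replicate 2, or 19.3 ± 5.004 CPM, about the median of all detected genes (19.8 CPM). Mtf2, counted in the list and its median although it encodes a Polycomb-associated protein, had 13 and 15 reads, or 17.9 ± 3.11 CPM. The receptor genes for corticosteroids stood higher, with Nr3c2, the mineralocorticoid receptor, at 78.5 ± 8.43 CPM and Nr3c1, the glucocorticoid receptor, at 47.9 ± 4.39 CPM. Stat3, the cytokine-responsive factor, averaged 58.5 ± 1.13 CPM, Hif1a, the hypoxia factor, 46.4 ± 17.8 CPM, Usf1 26.7 ± 0.150 CPM and Nfe2l2, the oxidative stress factor, 13.6 ± 5.49 CPM.

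Levels of cell type markers were set beside those of the members. Of the 10 astrocyte markers 5 were above Mt3 in mean level, led by Aldoc at 1499 ± 135 CPM and Slc1a3 at 651 ± 34.9 CPM, and the list median was 194 ± 6.93 CPM. The lowest of those 5 stood at 279 CPM and the next marker at 98.9 CPM, so no astrocyte marker lay near that median. Without genomic models the median was 102.2 CPM. A median in so wide a gap can move far when 1 gene changes place. All 7 neuronal markers were above Mt3, with a median of 1126 ± 76.2 CPM and Snap25 highest at 1651 ± 21.5 CPM. The list medians were 383 ± 14.5 CPM for 4 oligodendrocyte genes, 55.8 ± 2.72 CPM for 4 microglial genes, 25.8 ± 8.01 CPM for 4 endothelial genes and 1.95 ± 1.04 CPM for 6 choroid plexus genes. Single genes lay far from their list median, with Ttr at 252 ± 108 CPM, Cldn5 at 200 ± 43.9 CPM and Mog at 6.25 ± 3.14 CPM. The exact binomial test called none of the markers tested at 2-fold or more, against 0.309% of all genes. With so low a share over all genes, this count says little about the markers, and Ttr missed only the fold limit. From bulk libraries the share of the metallothionein reads that each cell type gave cannot be told apart.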

How the data were processed

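The deposited values are raw counts, whole numbers of reads assigned to each transcript model, in 1 library for each of 2 replicates, and other deposited values give each model's exons and length. Per the accompanying deposited notes, they derive from filtered alignments to mm10 with GENCODE M21, and per the file headers the model structures come from TALON. The sources used here give no aligner or version. Libraries were processed separately by the authors, as the names of unannotated models show.

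Counts were summed per gene identifier, and CPM was taken over reads not on spike-ins, including unannotated models on spike-in contigs. A count of 0 allows 3 counts of the total. Library differences were tested by two-sided exact binomial tests for genes with at least 20 reads together, and class and isoform shares by two-sided Fisher's exact tests for genes with at least 20 reads in each library, all with Benjamini-Hochberg adjustment. These tests take reads as independent. Ranks and places among genes are descriptions.

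Alternatives changed the classes counted, the read minimum, the fold, the short models kept (50 bases), the spike-in reads and the scaling (TMM from edgeR), and left out each replicate. The genes named are the 3 members, Mt4, the regulators, up to 4 leading members of each other list and members at 0, the nearest 2 genes above and 2 below each member, and overlapping genes. Members and lists were chosen with earlier results of these data known. Coding sequences were used in place of proteins. Python 3.11.15 with pandas 2.3.3, numpy 2.4.6, scipy 1.17.1 and matplotlib 3.10.9 were used, with edgeR 4.0.16 under R 4.3.3.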

Additional observations from a re-analysis of the deposited data

How the results depend on the processing

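No member was called between the libraries under any alternative run, but few of all genes tested were called either, as counted below. Mt2 stayed the lowest member. With genomic models left out of counts and totals, mean levels were 290.5 CPM for Mt1, 257 CPM for Mt3 and 66.1 CPM for Mt2. With full-splice models alone they were 403 CPM for Mt1 and 355 CPM for Mt3, because the total shrinks to the classes kept. Leaving out 1 replicate gave 249.5 to 278 CPM for Mt1, 245 to 254 CPM for Mt3 and 73.8 to 89.9 CPM for Mt2. Without genomic models, list medians were 33.6 CPM for zinc importers, 102 CPM for astrocyte, 1238 CPM for neuronal and 415 CPM for oligodendrocyte genes, and with full-splice models alone 40.9 CPM for zinc importers, 44.8 CPM for regulators, 138 CPM for astrocyte, 68.6 CPM for microglial and 488 CPM for oligodendrocyte genes. Genes called between libraries numbered 59 of 8306 tested without genomic models and 14 of 7558 with full-splice models alone. They numbered 51 of 9030 without models under 50 bases and 18 of 9062 at a 3-fold limit, against 28 of 9062. Counting ISM reads as full-splice raised the genes called for class share to 301 of 6038, against 16. Annotated models alone gave 0 of 4015 for isoform share by Fisher's exact test (86 at an unadjusted p under 0.05), against 9 of 4819. The cause was not tested. Mt3-201 had 96.2% with ISM reads in the denominator. Chosen after seeing the data, leaving Mt1-202 out of the full-splice reads gave Mt1 a share of 98.6%, and out of the denominator gave Mt1-201 99.7%. The Mt2 shares rest on 61 and 67 reads. No paired analysis was possible because there is 1 group.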
